A study of Mus musculus with 18 samples.

Results

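The transporters that move bile acids, phospholipid, sterols and conjugates across both faces of the hepatocyte were followed in mouse liver across all combinations of FXR genotype and GW4064 treatment. The 10 genes were chosen by symbol: Abcb11, Abcb4, Abcc2, Abcg5 and Abcg8 at the bile canaliculus, Slc10a1 and Slco1b2 for uptake from sinusoidal blood, and Abcc3, Abcc4 and Slc51a for efflux back across the basolateral membrane. Of these, 9 were measured, with 14 probe sets, and they stand among 12394 genes tested. No probe set of the table is named for Abcc4 alone, so it was not analysed here.

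Total RNA of whole liver was hybridised to 18 arrays in 6 groups of 3. WT mice were C57BL/6J. Whole-body FXR KO mice lack the FXR gene Nr1h4 in every tissue. In liver FXR KO mice the floxed gene is deleted by Cre under the albumin promoter, which is active in hepatocytes, so the intestine keeps FXR. Whether the other liver cells keep it was not measured. All mice were labelled male, 10 to 16 weeks old and of C57BL/6J background, and each genotype received either vehicle or GW4064, a synthetic FXR agonist. Per the labels, GW4064 was given by oral gavage as 2 doses of 150 mg/kg, with liver taken 2 hours after the last dose. The methods of the study describe the WT animals with another number and size of doses, overnight fasting and another array, and which account holds for these arrays was not settled. The labels do not say whether the WT animals carried floxed alleles or Cre, and they number the replicates without naming animals, so p-values measure the spread between these samples.

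FXR is a nuclear receptor that binds bile acids and, with its partner RXR, occupies inverted repeats of the half-site AGGTCA separated by 1 base (IR1). In the liver its textbook targets include Abcb11, the bile salt export pump that drives bile flow, and Nr0b2, the repressor SHP that lowers the bile acid synthesis enzymes. Loss of canalicular export causes cholestasis, and basolateral efflux pumps are regarded as the overflow route when bile acids accumulate. Bulk liver RNA was measured throughout, so fewer cells of a type and less RNA per cell cannot be told apart.

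Nr1h4 followed the labels. Its level was between 8.83 and 9.39 on the deposited log2 scale in the 6 WT arrays, between 4.17 and 4.69 in liver FXR KO and between 3.98 and 4.30 in whole-body FXR KO. Array medians were alike, at 5.96 to 6.00, and the sources give no scan date or other batch. Relative to the gene medians over all arrays, 2 arrays had the widest spread: WT GW4064 replicate 1, with an interquartile range of 0.259, and whole-body FXR KO GW4064 replicate 3, with 0.231, against 0.127 to 0.197 on the others. Both stayed in the fit, and the values without them are given where a result rests on them.

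The promoters of the transporters were read first, because the genotype compared is the presence of the factor that binds IR1. RefSeq windows (GRCm38.p6) of 250 bases before to 50 bases after the start were found for 9 of the 10 genes, in 12 windows. They were compared with AGGTCANTGACCT, in which N is any base, counting mismatches over the 12 fixed letters. The motif is its own reverse complement, so both strands are read at once. Abcb11 and Slco1b2 each held a match with 1 mismatch, and they are the pair of windows shown in full. At most 1 mismatch was found in 27 of 32851 windows, or 0.0822%. In the lines below capitals mark the best-matching stretch, at bases 63 to 51 before the start of Abcb11 (chr2:69342567-69342866, minus strand) and 88 to 76 before the start of Slco1b2 (chr6:141629268-141629567, plus strand).
Abcb11: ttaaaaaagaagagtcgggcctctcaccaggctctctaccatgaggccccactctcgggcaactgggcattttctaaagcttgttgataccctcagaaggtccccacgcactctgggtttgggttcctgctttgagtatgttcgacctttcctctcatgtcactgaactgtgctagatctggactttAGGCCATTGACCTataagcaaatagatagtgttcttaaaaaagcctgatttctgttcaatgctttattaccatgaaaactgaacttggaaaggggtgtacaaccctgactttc
Slco1b2: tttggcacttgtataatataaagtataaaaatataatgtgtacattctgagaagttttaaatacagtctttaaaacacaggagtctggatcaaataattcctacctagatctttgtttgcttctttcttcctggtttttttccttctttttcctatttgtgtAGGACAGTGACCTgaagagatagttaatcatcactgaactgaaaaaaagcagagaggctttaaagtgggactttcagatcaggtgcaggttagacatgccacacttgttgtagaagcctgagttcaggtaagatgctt

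The other windows held no such close match. The best stretches of Slc10a1 and Slc51a had 3 mismatches, and 11.4% of all windows had at most that many. Those of Abcb4 and Abcc2 had 4, and 56.4% of all windows had at most that many. These stretches are given to show how far they depart from the repeat, with the letters that match it in capitals.
Slc10a1: AGGTCAGaaAaCT
Slc51a: AGGaCtTTGtCCT
Abcb4: tGGTtgTTGAaCT
Abcc2: AGGTCAGgagaCT

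Abcg5 and Abcg8, which encode the half-transporters of a sterol pump, lie head to head on chromosome 17. Their windows chr17:84682962-84683261 (minus strand, Abcg5) and chr17:84682871-84683170 (plus strand, Abcg8) share 209 bases, and their starts are 110 bases apart. The best stretches there had 5 and 4 mismatches. A match is a description of letters and not a bound site, and a window without one says nothing of sites elsewhere.

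**Figure D1:**
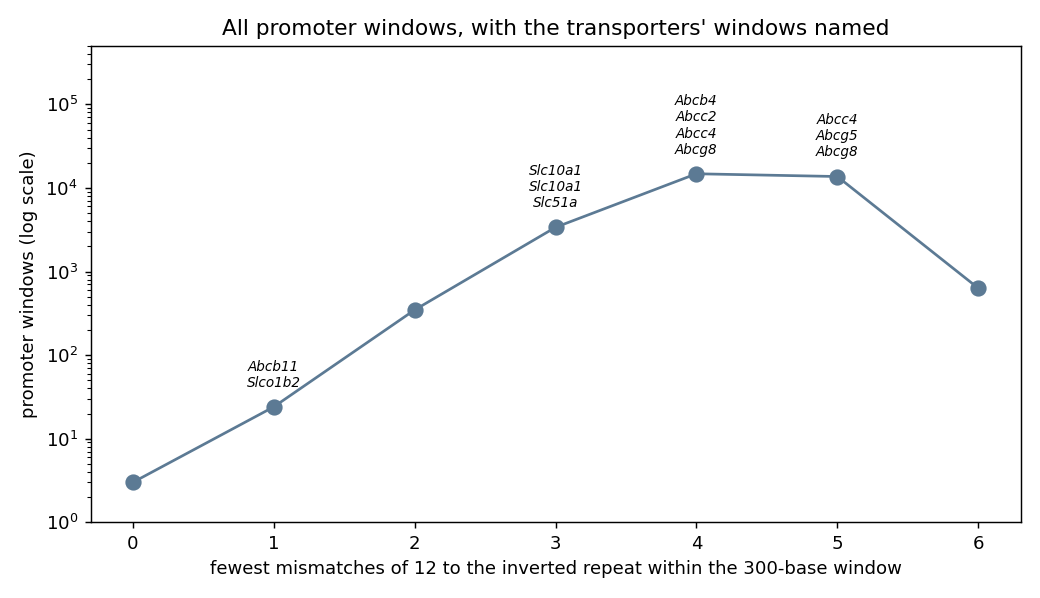
Number of promoter windows (y axis, log scale) against the fewest mismatches, of 12 letters, to the IR1 repeat anywhere in the 300-base window (x axis), over 32851 windows, with the transporters' own windows named at their count. Abcb11 and Slco1b2 stand at 1 mismatch, where 24 windows lie, and the other transporters at 3 to 5.

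Abcb11 was lower in both knockouts than in WT. Its log2 level was 11.59, 11.44 and 11.66 in the vehicle-treated WT livers and 11.46, 11.45 and 11.66 in the GW4064-treated WT livers. It was 11.00, 10.96 and 11.02 in liver FXR KO with vehicle and 10.87, 10.83 and 11.01 with GW4064. In whole-body FXR KO it was 11.14, 10.95 and 10.93 with vehicle and 10.91, 10.94 and 10.21 with GW4064. Every WT array therefore lay above every knockout array, the lowest WT value being 11.44 and the highest knockout value 11.14. Such a gap, with the 6 WT arrays above the 12 knockout arrays, was found for 0.42% of all genes, and the reverse, which no transporter showed, for 0.315%. In the order of group means, WT GW4064 and whole-body FXR KO vehicle were the one pair of neighbours whose arrays did not overlap.

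Abcb11 was also the 1 of 9 transporters called by limma's F test for any difference among the 6 groups (adjusted p = 0.00453), against 6.08% of all genes. Slco1b2, the other transporter with a close IR1 match, was not called by that test (adjusted p = 0.446). The bearing of the match on the levels was not tested. With GW4064 in both genotypes, Abcb11 was lower in whole-body FXR KO than in WT by 0.83 on the log2 scale (SE 0.14, adjusted p = 0.00284), or 1.78-fold. Among all genes 4.64% were called in that comparison, and 1 of 9 transporters. The array at 10.21, whole-body FXR KO GW4064 replicate 3, is one of the pair that stood apart. Without both of those arrays the difference was -0.63 (adjusted p = 0.00556). It did not pass when the fit held the compared groups alone (adjusted p = 0.135) or under the methods' t-test (adjusted p = 0.404). In liver FXR KO relative to WT with GW4064, Abcb11 fell by 0.62 (SE 0.14, adjusted p = 0.0478), or 1.54-fold, with 1.06% of all genes and 1 of 9 transporters called. That call was kept on leaving out any of the 3 whole-body FXR KO GW4064 arrays and lost on leaving out any other array, with adjusted p up to 0.152. It was also lost with the compared groups alone (adjusted p = 0.0519), with all probe sets tested (adjusted p = 0.0506) and under the methods' t-test (adjusted p = 0.32).

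With vehicle the Abcb11 differences had much the same size but did not pass the adjusted threshold. The value was -0.57 (95% interval -0.87 to -0.26, adjusted p = 0.0773) in liver FXR KO relative to WT, where 0.879% of all genes and 0 of the 9 transporters were called. There 3 of the 9 transporters and 12.6% of all genes had an unadjusted p under 0.05. The Abcb11 value was -0.55 (95% interval -0.86 to -0.25, adjusted p = 0.0842) in whole-body FXR KO relative to WT, where 1.14% of all genes and again 0 of 9 transporters were called. In that comparison 3 of the 9 transporters and 13.3% of all genes had an unadjusted p under 0.05. In both comparisons the arrays did not overlap. Leaving out whole-body FXR KO GW4064 replicate 3, which enters only through the shared spread, brought both past the threshold, with adjusted p of 0.00308 and 0.00332.

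Averaged over both treatments, a comparison added after the data were seen, Abcb11 fell by 0.59 in liver FXR KO (SE 0.10, adjusted p = 0.0031) and by 0.69 in whole-body FXR KO (SE 0.10, adjusted p = 0.000505). Of the 9 transporters, 2 were called in the first of these (Abcb11 and Abcg8) and 1 in the second, against 3.74% and 7.25% of all genes. The knockouts did not differ detectably in Abcb11. Whole-body minus liver FXR KO was 0.01 with vehicle (95% interval -0.29 to 0.32) and -0.21 with GW4064 (95% interval -0.52 to 0.09). With vehicle 0.678% and with GW4064 1.8% of all genes were called between the knockouts, and 0 of 9 transporters in either, with 2 and 1 at an unadjusted p under 0.05. Over all genes 12.2% and 15% had an unadjusted p under 0.05.

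Levels of other cell types' genes were read beside these results. In whole-body FXR KO relative to WT with GW4064, 5 of 8 stellate cell markers rose, with a list median of 1.01. Among them were the fibrillar collagens Col3a1, by 2.86, and Col1a1, by 1.01, and the mural cell genes Rgs5, by 1.61, and Pdgfrb, by 1.43 on the log2 scale. The median difference of the stellate list from the WT vehicle mean ranged over arrays from -0.82 to -0.20 in WT GW4064, from -0.08 to 0.10 in liver FXR KO GW4064 and from 0.34 to 0.76 in whole-body FXR KO GW4064. With vehicle it ranged from -0.13 to 0.22 in WT, from -0.09 to 0.12 in liver FXR KO and from 0.23 to 0.53 in whole-body FXR KO. Of the endothelial markers 1 of 8 rose in that comparison (Lyve1, by 1.24, list median 0.41). None of 7 Kupffer cell and none of 7 cholangiocyte markers passed there by limma, with 3 and 2 at an unadjusted p under 0.05 and list medians of 0.42 and 0.02. Over all genes 19% had an unadjusted p under 0.05 in that comparison. The cholangiocyte list had 1 call elsewhere, Slc4a2, which rose by 0.31 in liver FXR KO averaged over treatments and did not pass without WT GW4064 replicate 1 (adjusted p = 0.0633). Among the hepatocyte markers 1 of 8 was called, Hnf4a, which fell by 0.43, and the median difference of that list stayed within -0.17 and 0.04 on all 18 arrays. In liver FXR KO relative to WT with GW4064, where Abcb11 was called, 1 of 8 stellate markers rose (Rgs5, by 1.40) and 5 had an unadjusted p under 0.05, with a list median of 0.52. There 7 of 8 endothelial markers had an unadjusted p under 0.05 and none passed, with a median of 0.49. For Kupffer cell markers 2 of 7 had an unadjusted p under 0.05, with a median of 0.43, beside 14% of all genes. The endothelial list ranged over the WT GW4064 arrays from -0.81 to -0.11 against WT vehicle, and over the liver FXR KO GW4064 arrays from -0.06 to 0.14.

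Without both arrays that stood apart the stellate, endothelial and Kupffer medians became smaller. The cholangiocyte median in whole-body FXR KO relative to WT with GW4064 became larger, at 0.15. In whole-body FXR KO relative to WT with GW4064 the stellate median was then 0.65, with 4 of 8 called, Col3a1 at 1.88 and Col1a1 no longer called (0.62, adjusted p = 0.101), and neither Lyve1 (adjusted p = 0.128) nor Hnf4a (adjusted p = 0.233) passed. Averaged over treatments with all arrays, limma called Lyve1 (0.86, adjusted p = 0.00784) and Stab2 (0.47, adjusted p = 0.00932) in whole-body FXR KO. Hnf4a fell there (-0.42, adjusted p = 0.00149), and the stellate calls included Col3a1 (1.76), Pdgfrb (1.08), Rgs5 (1.06) and Dcn (0.80). In liver FXR KO averaged likewise, limma called Rgs5 (0.97, adjusted p = 0.00761) and the hepatocyte marker Tdo2 (-0.26, adjusted p = 0.0301). Hnf4a was also called in whole-body relative to liver FXR KO with vehicle (-0.47, adjusted p = 0.0481). Without both arrays, 5 of 8 stellate and 2 of 8 endothelial markers rose in whole-body FXR KO averaged over treatments. There 1 of 8 hepatocyte markers fell. In liver FXR KO averaged over treatments, 2 of 8 stellate markers then rose and 1 of 8 hepatocyte markers fell. The stellate, endothelial and Kupffer medians in liver FXR KO relative to WT with GW4064 were then 0.20, 0.27 and 0.23, with Rgs5 still called (adjusted p = 0.0262). In liver FXR KO relative to WT with vehicle, where Abcb11 differed by -0.57 without passing, the stellate, endothelial, Kupffer and cholangiocyte lists had no call and medians of 0.08, 0.01, 0.27 and -0.04. In whole-body FXR KO relative to WT with vehicle, where Abcb11 differed by -0.55 without passing, the same medians were 0.44, 0.35, 0.33 and 0.002. Pdgfrb was called there by limma (0.72, adjusted p = 0.0423). Without both arrays that stood apart, 2 of 8 stellate and 1 of 8 endothelial markers were called there. The part of other cell types in the Abcb11 values was not tested.

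**Figure D2:**
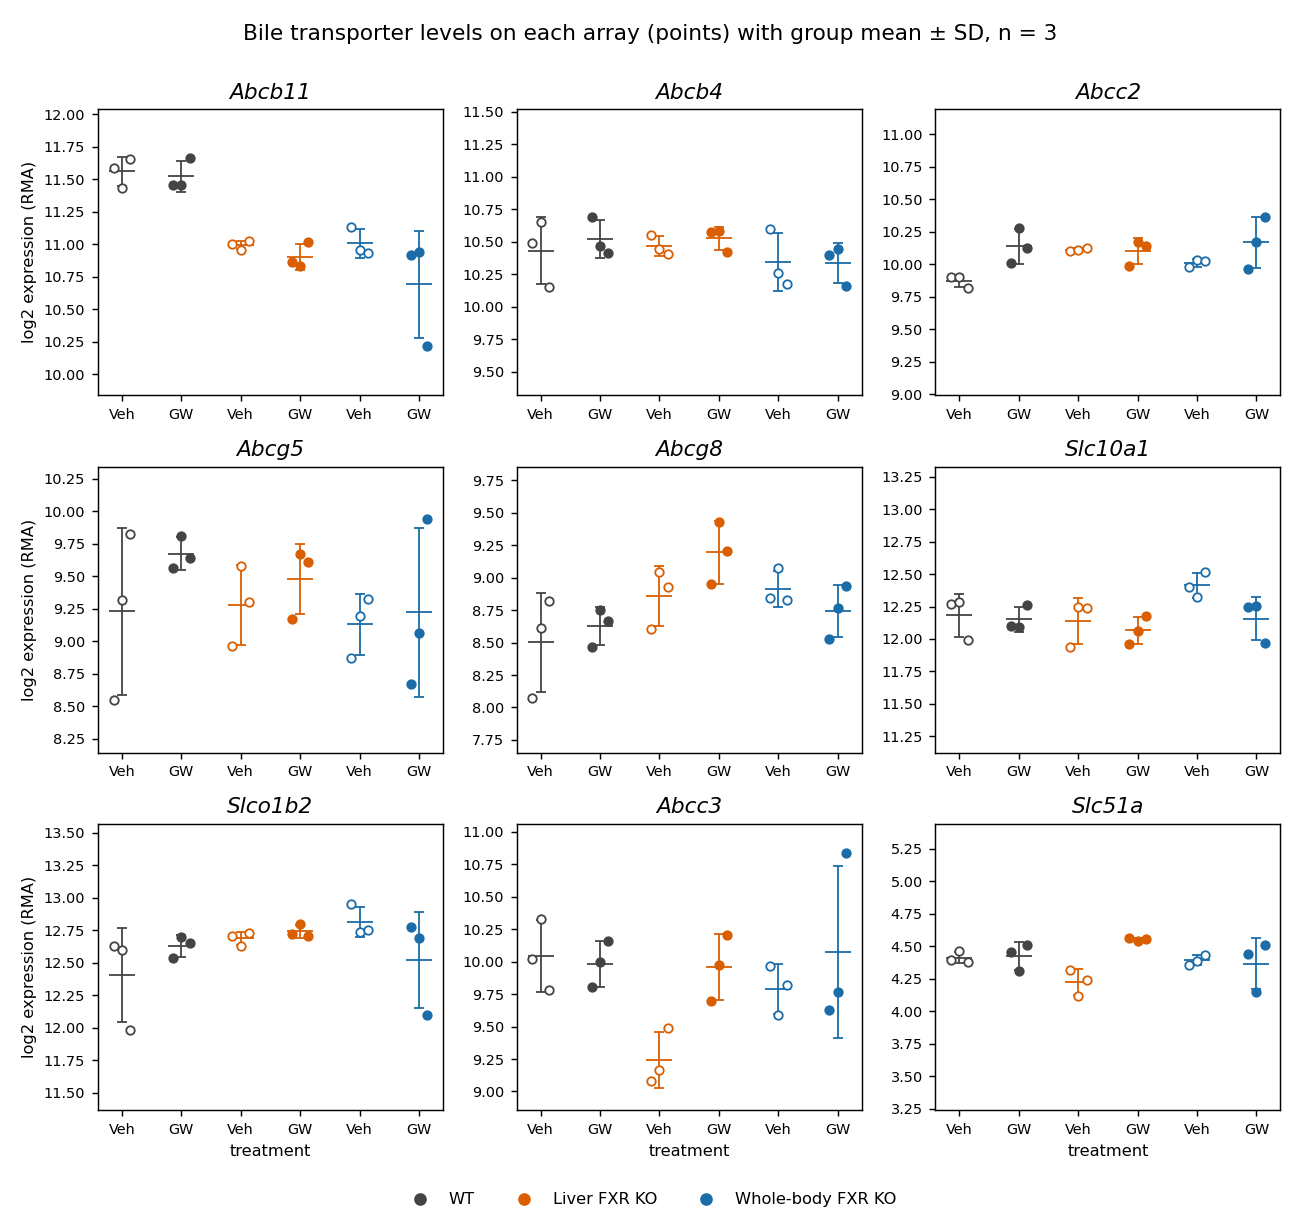
Log2 expression of the 9 measured transporters (y axis, each panel spanning the same range) on each array, by treatment (x axis, vehicle or GW4064) and genotype (colour). Points are arrays, open for vehicle and filled for GW4064, drawn in order of replicate number, and lines give the mean ± SD of 3. The WT arrays of Abcb11, from 11.44 to 11.66, lie above all its knockout arrays, from 10.21 to 11.14, and no other transporter has all its WT arrays on one side of its knockout arrays.

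No transporter passed limma's adjusted test for GW4064 against vehicle in any genotype, and the methods' t-test, adjusted likewise, also called 0. In WT livers 0.194% of all genes passed and 0 of 9 transporters. Of the 9, 1 had an unadjusted p under 0.05, beside 12.6% of all genes. On the same arrays Nr0b2 rose by 1.85 on the log2 scale and Cyp8b1, the sterol 12-alpha-hydroxylase, fell by 2.44 (both adjusted p = 0.0433). Without WT GW4064 replicate 1 they differed by 1.34 (adjusted p = 0.201) and -1.77 (adjusted p = 0.0833). On WT GW4064 replicates 1 to 3, Nr0b2 read 10.84, 9.59 and 9.04 and Cyp8b1 8.12, 9.79 and 10.46. Replicate 3 thus lay nearest to the vehicle arrays for both genes. Abcb11 itself differed by -0.04 upon GW4064 treatment of WT (95% interval -0.34 to 0.27), which bounds any rise there to 0.27 on the log2 scale at that confidence. Of the acute-phase genes 1 of 15 also rose in the same comparison, Lcn2, by 5.50, which did not pass without WT GW4064 replicate 1 (4.47, adjusted p = 0.261). In all 13 of 15 had an unadjusted p under 0.05, with a list median of 0.97, and the median of that list, measured against WT vehicle, ran from 0.22 to 1.24 on the WT GW4064 arrays and from -0.05 to 0.03 on the vehicle arrays. Of the endothelial markers 7 of 8, with a median of -0.41, and of the stellate markers 6 of 8, with a median of -0.44, also had an unadjusted p under 0.05 there, and none passed. The bearing of these lists on the transporters was not tested.

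In the knockouts no gene at all was called for GW4064. The percentage was 0% in liver FXR KO and 0% in whole-body FXR KO, with 622 and 775 of 12394 genes at an unadjusted p under 0.05, of which 2 and 2 were transporters. Abcb11 differed by -0.09 in liver FXR KO and by -0.32 in whole-body FXR KO, the latter becoming -0.08 without the arrays that stood apart. The GW4064 effects did not differ detectably between genotypes. Between WT and liver FXR KO, WT and whole-body FXR KO, and liver and whole-body FXR KO, 0%, 0% and 0% of all genes passed, with 925, 1017 and 604 at an unadjusted p under 0.05 and 2, 1 and 1 transporters among them. For Abcb11 the WT effect minus that in liver FXR KO was 0.05 (95% interval -0.37 to 0.48).

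Abcb4, the floppase that delivers phosphatidylcholine to bile, had no comparison at an unadjusted p under 0.05. Its group means ran from 10.34 ± 0.15 (SD, n = 3) in whole-body FXR KO GW4064 to 10.53 ± 0.09 in liver FXR KO GW4064, and every group overlapped its neighbour. Upon GW4064 treatment of WT the log2 fold change was 0.09 (95% interval -0.18 to 0.37). Against WT with GW4064 it was 0.003 in liver FXR KO and -0.19 in whole-body FXR KO (95% interval -0.46 to 0.09).

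Abcc2, the canalicular pump for conjugated bilirubin and other organic anions, had its lowest values in WT livers without agonist. Levels were 9.90, 9.90 and 9.82 in WT vehicle and 10.01, 10.28 and 10.12 in WT GW4064. Those groups did not overlap, but the difference of 0.26 (SE 0.09, unadjusted p = 0.0112) did not pass the adjusted threshold (adjusted p = 0.246). In vehicle-treated knockouts Abcc2 also lay above WT vehicle without overlap, from 10.10 to 10.12 in liver FXR KO and from 9.98 to 10.03 in whole-body FXR KO, by 0.24 (adjusted p = 0.284) and 0.14 (adjusted p = 0.561). With GW4064 the genotypes overlapped, and the knockout differences were -0.04 and 0.03.

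Of the 9 transporters Abcg5, a sterol half-transporter, had the largest standard error of a difference, 0.30. It was 8.55, 9.31 and 9.82 in WT vehicle, 9.56, 9.81 and 9.64 in WT GW4064, and 8.67, 9.06 and 9.94 in whole-body FXR KO GW4064. With that spread a log2 fold change of 0.44 upon GW4064 treatment of WT had an interval from -0.19 to 1.07, and no comparison of Abcg5 had an unadjusted p under 0.05. Its partner Abcg8 was 8.08, 8.61 and 8.82 in WT vehicle, 8.47, 8.75 and 8.66 in WT GW4064, 8.60, 9.05 and 8.92 in liver FXR KO vehicle and 8.95, 9.43 and 9.20 in liver FXR KO GW4064. With GW4064, liver FXR KO lay above WT without overlap, by 0.57 (SE 0.17, adjusted p = 0.13). With vehicle, Abcg8 in whole-body FXR KO also lay above WT without overlap, by 0.41 (unadjusted p = 0.0294, adjusted p = 0.307). Liver FXR KO with vehicle exceeded WT by 0.36 with overlap (adjusted p = 0.413).

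Averaged over both treatments Abcg8 rose in liver FXR KO by 0.46 (SE 0.12, adjusted p = 0.0451). This call was kept on leaving out WT vehicle replicate 3, liver FXR KO vehicle replicate 1, liver FXR KO GW4064 replicate 1 or whole-body FXR KO GW4064 replicate 1 or 3, and it was lost on leaving out any other array, with adjusted p up to 0.113. It was also lost without both arrays that stood apart (0.42, adjusted p = 0.0869) and with the compared groups alone (adjusted p = 0.0692). Without both arrays Abcc3 was called in its place, at -0.46 (adjusted p = 0.0419). In whole-body FXR KO, where Abcg8 was 8.84, 9.07 and 8.82 with vehicle and 8.53, 8.77 and 8.93 with GW4064, the averaged difference was 0.27 (adjusted p = 0.214). The partner Abcg5 differed by -0.07 and -0.27 in the same averages. Of 8 measured genes of cholesterol handling and LXR targets, 1 was called in each knockout relative to WT with GW4064. It was Scarb1, the HDL receptor, with log2 fold changes of -0.57 in liver and -0.69 in whole-body FXR KO. The first did not pass without WT GW4064 replicate 1 (adjusted p = 0.244). Npc1, which exports cholesterol from lysosomes, fell by 0.55 in whole-body relative to liver FXR KO with GW4064, which did not pass without whole-body FXR KO GW4064 replicate 3 (adjusted p = 0.0972).

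Slc10a1, the sodium-dependent bile acid uptake carrier NTCP, was highest in whole-body FXR KO with vehicle. Its levels there were 12.40, 12.32 and 12.51, against 12.27, 12.29 and 11.99 in WT vehicle and 11.94, 12.25 and 12.24 in liver FXR KO vehicle. The arrays did not overlap with either, and the differences were 0.23 from WT (adjusted p = 0.386) and 0.27 from liver FXR KO (adjusted p = 0.305). With GW4064, whole-body FXR KO read 12.25, 12.25 and 11.97, a difference from its vehicle group of -0.26 (unadjusted p = 0.0327, adjusted p = 0.785). Without replicate 3, the array at 11.97 that stood apart, it was -0.16. The other probe set of Slc10a1 followed the first over the 18 arrays (r = 0.944) and gave 0.29 and 0.42 for the same differences with vehicle, neither passing in a fit of all probe sets (adjusted p = 0.207 and 0.0797). Upon GW4064 treatment of WT, Slc10a1 differed by -0.03 (95% interval -0.27 to 0.20).

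Slco1b2, a sodium-independent organic anion and bile acid uptake carrier, has the other close IR1 match in its promoter and 5 probe sets on the array. On the one used for the test, the levels were 12.63, 12.60 and 11.98 in WT vehicle, 12.54, 12.70 and 12.65 in WT GW4064, 12.95, 12.73 and 12.75 in whole-body FXR KO vehicle and 12.77, 12.69 and 12.10 in whole-body FXR KO GW4064. A single array was low in each of 2 groups, WT vehicle replicate 3 and whole-body FXR KO GW4064 replicate 3, while the 6 liver FXR KO arrays lay between 12.63 and 12.80. With vehicle, whole-body FXR KO exceeded WT by 0.41 without overlap (unadjusted p = 0.0234, adjusted p = 0.279). Without WT vehicle replicate 3 that difference was 0.20 (adjusted p = 0.624). The next probe set ran alike over arrays (r = 0.947) and gave 0.40. The third correlated at r = 0.673 and gave 0.80 (adjusted p = 0.175 in the fit of all probe sets). The other pair of Slco1b2 probe sets, with means of 5.52 and 5.03, gave 0.07 and -0.06 and correlated with the tested one at r = 0.452 and 0.303.

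**Figure D3:**
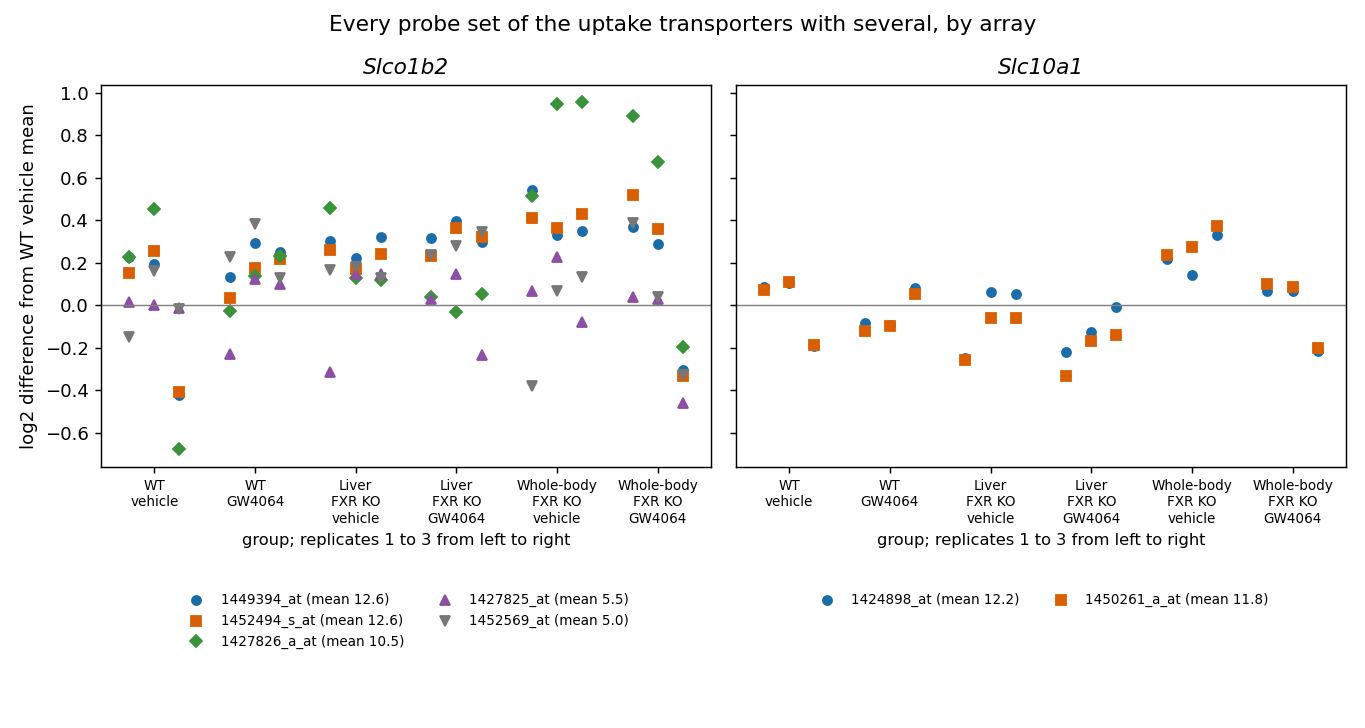
Difference in log2 expression of each array from the WT vehicle mean of the same probe set (y axis), for the 5 probe sets of Slco1b2 and the 2 of Slc10a1, by group with replicates 1 to 3 from left to right (x axis), and with each probe set's mean log2 level in the legend. The brightest probe sets of each gene lie close together on every array, and all 5 of Slco1b2 are below 0 on whole-body FXR KO GW4064 replicate 3.

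Abcc3, the basolateral pump for glucuronide conjugates and bile acids, read lowest in liver FXR KO with vehicle. Levels there were 9.08, 9.16 and 9.49, below WT vehicle at 10.02, 10.33 and 9.78, below whole-body FXR KO vehicle at 9.97, 9.59 and 9.82, and below liver FXR KO GW4064 at 9.70, 9.97 and 10.20. None of these groups overlapped the first. The difference from WT was -0.80 (SE 0.24, unadjusted p = 0.00435, adjusted p = 0.144), and the GW4064 effect in liver FXR KO was 0.72 (SE 0.24, unadjusted p = 0.00907, adjusted p = 0.843).

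One array outside the groups compared changed the first of those calls through the shared spread. Whole-body FXR KO GW4064 replicate 3 read 10.84, against 9.63 and 9.76 on its companions, and without it the Abcc3 difference of liver FXR KO from WT passed (adjusted p = 0.0178). The GW4064 effect in liver FXR KO did not pass without both arrays that stood apart (adjusted p = 0.238). In WT the GW4064 effect was -0.06 (95% interval -0.57 to 0.45), and the effect in WT minus that in liver FXR KO was -0.77 (SE 0.34, adjusted p = 0.637).

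Slc51a, a subunit of the basolateral exporter OST, lay near the low end of the deposited scale, at 4.11 to 4.57 on all arrays, where the table spans 2.92 to 15.2. The values carry no detection call. In liver FXR KO it read 4.32, 4.11 and 4.24 with vehicle and 4.57, 4.54 and 4.56 with GW4064, a difference of 0.33 (SE 0.09, unadjusted p = 0.00194, adjusted p = 0.601). The WT arrays ran from 4.31 to 4.51. Its partner subunit Slc51b had no probe set of its own. In the vehicle comparison of liver FXR KO with WT the difference was -0.19 (adjusted p = 0.402).

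**Figure D4:**
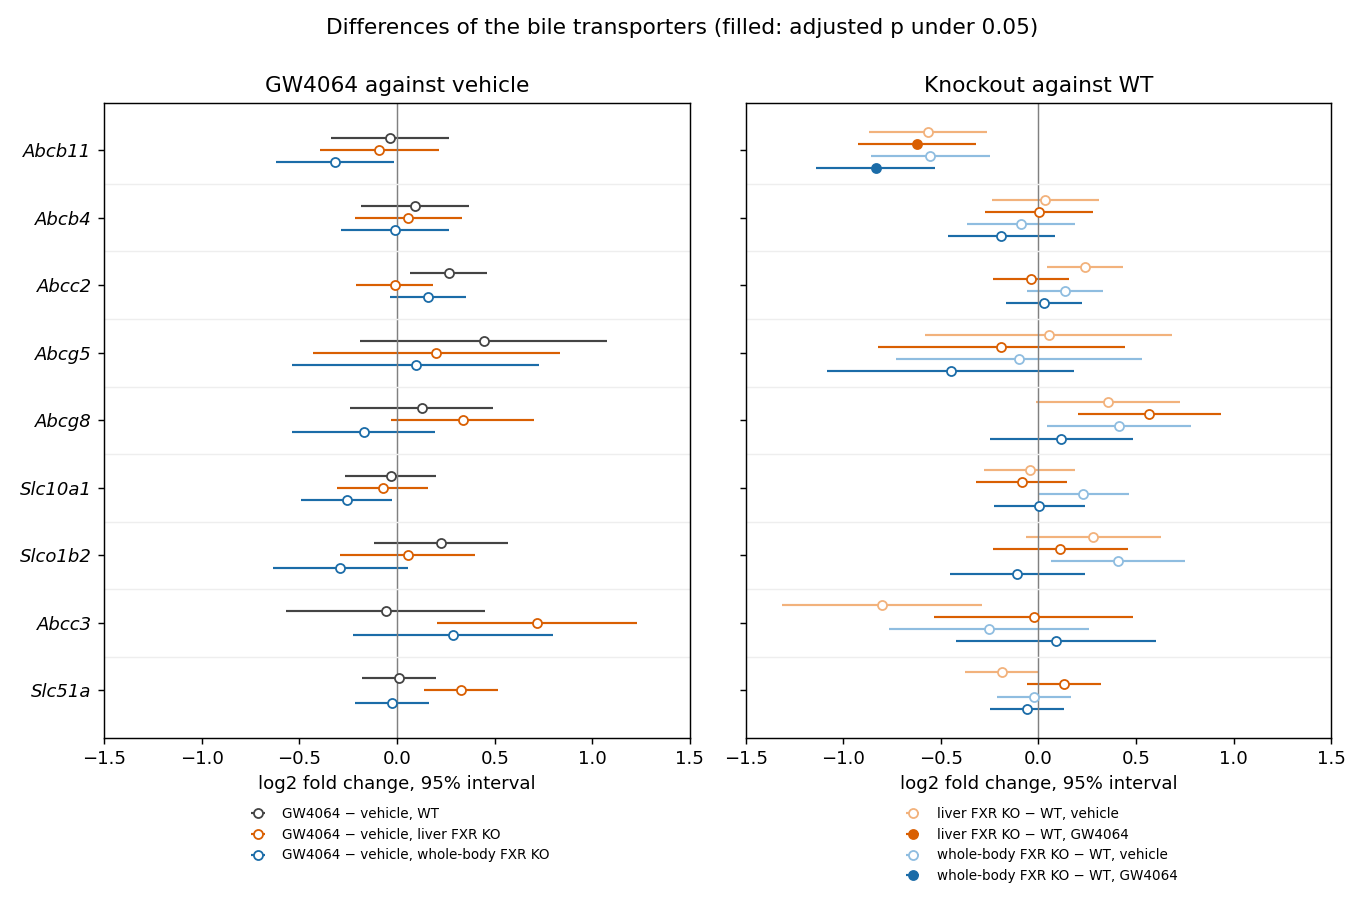
Log2 fold change (x axis) with its 95% interval for each transporter (y axis), upon GW4064 treatment in each genotype (left) and in each knockout relative to WT under each treatment (right). Filled points passed an adjusted p of 0.05 over 12394 genes: the Abcb11 differences of -0.62 and -0.83 with GW4064 alone, while the vehicle values of -0.57 and -0.55 did not pass.

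The transporters' medians are given beside those of all genes. Their median log2 fold change upon GW4064 treatment was 0.09 in WT, 0.06 in liver FXR KO and -0.03 in whole-body FXR KO, beside medians over all genes of -0.004, -0.002 and -0.01. Relative to WT with GW4064 the median was -0.02 in liver FXR KO, with 4 above 0 and 5 below, and -0.06 in whole-body FXR KO, with 4 above and 5 below. The transporters' range in the latter comparison ran from the Abcb11 value to 0.12. In whole-body relative to liver FXR KO with GW4064 the median was -0.19, with 3 above 0 and 6 below, beside -0.02 for all genes. The GW4064 effect in whole-body FXR KO was below that in WT for 8 of 9, with a median of 0.23 for WT minus whole-body FXR KO. It was below that in liver FXR KO for 8 of 9, with a median of 0.23 for liver minus whole-body FXR KO, beside all-gene medians of 0.01 and 0.01. Those comparisons share the whole-body FXR KO GW4064 arrays, among them replicate 3, and no transporter passed in them.

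Other genes of bile transport were read from lists of the same routes. None of 6 other canalicular transporters measured and none of 4 other basolateral efflux genes was called by limma in any of 14 comparisons, and at most 2 and 1 had an unadjusted p under 0.05. Over all genes that share ran from 4.87% to 22.3% by comparison. Among 4 other sinusoidal uptake genes measured, Slc22a7, the organic anion carrier OAT2, was called: it fell by 2.28 in whole-body FXR KO relative to WT with GW4064 (SE 0.49, adjusted p = 0.013). Whole-body FXR KO GW4064 replicate 3 read 5.06, against 7.04 and 7.23 on its companions, and the median of the uptake list on that array was -1.80 from WT vehicle, against -0.15 and 0.09. Without both arrays that stood apart Slc22a7 fell by 1.94 (adjusted p = 0.0213). The long-chain fatty acid carrier and acyl-CoA synthetase Slc27a2 differed between the knockouts with GW4064, and fell by 0.41 in whole-body relative to liver FXR KO (adjusted p = 0.0322), but it did not pass without whole-body FXR KO GW4064 replicate 3 (adjusted p = 0.116). Among 10 genes of the canalicular scaffold and of vesicle traffic, 1 was called in whole-body FXR KO relative to WT with GW4064. Slc9a3r1, the scaffold protein NHERF1, fell by 0.38 (adjusted p = 0.00708), and it did not pass without both arrays that stood apart (adjusted p = 0.109). Rdx, or radixin, which anchors canalicular pumps to actin, rose by 0.35 and 0.33 in liver and whole-body FXR KO averaged over treatments (adjusted p = 0.0471 and 0.0376), and passed in neither without WT GW4064 replicate 1 (adjusted p = 0.111 and 0.0889).

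The genes around FXR itself included the feedback on synthesis. Of 12 genes of the FXR pathway and bile acid enzymes, 2 rose and 2 fell in whole-body FXR KO relative to WT with GW4064. Cyp7a1, the rate-limiting enzyme of bile acid synthesis, rose by 3.82 and Cyp8b1 by 2.81, while Nr0b2 fell by 2.20, beside Nr1h4. All 4 were called without both arrays that stood apart, with Cyp7a1 at 3.04, Cyp8b1 at 2.40 and Nr0b2 at -1.41. Cyp7a1 read 10.75, 10.44 and 10.61 in WT vehicle and 5.82, 7.18 and 10.19 in WT GW4064. In whole-body FXR KO it read 10.85, 11.10 and 11.73 with vehicle and 12.26, 11.19 and 11.17 with GW4064. The difference with GW4064 thus includes low values in 2 WT GW4064 arrays. In liver FXR KO relative to WT with GW4064, Nr1h4 was the 1 of 12 called. There 5 of the 12 had an unadjusted p under 0.05, beside 14% of all genes. Averaged over treatments, Slc27a5, the bile acyl-CoA synthetase, fell by 0.23 in liver FXR KO (adjusted p = 0.0281). Of 10 genes of PXR, CAR and NRF2, regulators also known for Abcc2 and Abcc3, 1 was called in liver FXR KO relative to WT with GW4064. Nqo1, a quinone reductase, fell by 0.90 there, and it rose by 0.92 in whole-body relative to liver FXR KO. The first did not pass without WT GW4064 replicate 1 (adjusted p = 0.118) and the second not without whole-body FXR KO GW4064 replicate 3 (adjusted p = 0.101). Cyp2b10 rose by 1.35 and Nr1i2, which encodes PXR, fell by 0.63 in whole-body FXR KO averaged over treatments. Cyp2b10 did not pass without whole-body FXR KO GW4064 replicate 3 (adjusted p = 0.0688), nor Nr1i2 without WT GW4064 replicate 1 (adjusted p = 0.0639). Of 6 enterocyte markers measured, 1 was called with GW4064 in whole-body FXR KO relative to WT: Fabp2, a fatty acid binding protein, fell by 1.30. Without both arrays that stood apart it did not pass (-0.86, adjusted p = 0.0942). Averaged over treatments, limma called Fabp2 in whole-body FXR KO (-0.84, adjusted p = 0.0082) and Slc10a2 in liver FXR KO (-0.645, adjusted p = 0.0261). Without both arrays, 1 of 6 enterocyte markers fell in the first average, while 0 of 6 fell and 1 of 6 rose in the second.

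The genes whose levels ran most like each transporter over the 18 arrays are given as a description, since the arrays share groups and scale. Abcb11 ran most like Pecr, a peroxisomal enoyl-CoA reductase (r = 0.905), and Apeh, an acylpeptide hydrolase (r = 0.888), with genotype means of 11.57, 11.01 and 11.09 for Pecr in WT, liver and whole-body FXR KO. Slco1b2 ran most like the cytochromes Cyp2e1 (r = 0.917) and Cyp2c54 (r = 0.881). Slc10a1 was nearest to Dmgdh, the dimethylglycine dehydrogenase (r = 0.837), and Mospd2 (r = 0.833), and Abcc3 to the mitochondrial carrier Slc25a10 (r = 0.884) and the mitochondrial protease Lonp1 (r = 0.811). For Abcb4 they were Pllp (r = 0.842) and Agap1 (r = 0.841), for Abcc2 Tm9sf2 (r = 0.801) and Myhas (r = 0.77), and for Abcg5 Serpind1 (r = 0.82) and Fezf2 (r = 0.805). Abcg8 was nearest to Emc3 (r = 0.837) and 2810025M15Rik (r = 0.827), and Slc51a to Dync1li1 (r = 0.699) and Ifna4 (r = 0.684). The pair Abcg5 and Abcg8 correlated at r = 0.517 over all arrays and at r = 0.863 after the group means were taken out.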

How the data were processed

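The authors summarised the arrays with RMA, per the processing notes with the labels, and deposited log2 expression per probe set for 18 liver samples. RMA corrects background, normalises by quantiles across arrays and summarises probes by median polish, so an overall shift in RNA between arrays would be removed. Versions and detection calls are not given in the sources used here. Probe sets were named from the platform annotation: 20393 of 22690 carry 1 symbol. Where a gene had several, the probe set of highest mean level over all arrays was tested, which left 12394 genes.

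Groups were compared with limma 3.58.1 (lmFit and eBayes) in R 4.3.3, with a mean per group and 12 residual degrees of freedom. P-values are two-sided and adjusted over all genes by Benjamini-Hochberg, with a threshold of 0.05. The fit was tested on simulated data with independent genes and no arrays that stood apart, so that test does not measure recovery in these arrays. Named genes were the transporters, up to 4 called genes per list and comparison, and the 2 most correlated genes per transporter. The members and lists were chosen with earlier results of these data known. Comparisons share control arrays. Alternatives covered the samples in the fit, probe set choice, a filter on dim genes, centring on the median, a further quantile normalisation, weights per array, a robust prior with a trend, the replicate number as a block, the methods' t-test and each array left out. Figures were drawn with matplotlib 3.10.9.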

Additional observations from a re-analysis of the deposited data

How the results depend on the processing

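Of the transporters' fold changes, 126 in all, none reversed while called. Over 3595 values under the alternatives, 36 lost and 14 gained a call. The number of transporters called with GW4064 in liver FXR KO relative to WT was 1, and it was 0 with the compared groups only, with all probe sets tested and with the methods' t-test, and 0 to 1 with an array left out. In whole-body FXR KO relative to WT with GW4064 it went from 1 to 0 with the compared groups only (Abcb11 adjusted p = 0.135) and with the methods' t-test (adjusted p = 0.404), and stayed at 1 with any array left out. With vehicle, 0 became 1 in both knockouts under the compared groups only and under array weights. Without both arrays that stood apart it became 2 in liver FXR KO and 1 in whole-body FXR KO, and with an array left out it ran from 0 to 2 and from 0 to 1. Averaged over treatments, 2 in liver FXR KO became 1 with the compared groups only and 1 to 3 with an array left out. The count in the F test became 2 without both arrays, and 1 to 2 with an array left out. Slc51a has no value without the dimmest 40% of genes, which it is among. The precision is limited by the number of arrays, 3 per group, and signal over background is not known here. The averages over treatments, the fit without both arrays and the list genes' values without either were chosen after seeing the data. The share of all genes called was taken in the main fit alone, so the counts under the alternatives have no such share beside them. The cause of these changes was not tested.

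Replicate numbers did not meet the rule set for pairing: in 0 of 9 comparisons did every same-numbered pair correlate above 0.1, with values from -0.229 to 0.339. For GW4064 against vehicle the values were 0.339, 0.141 and 0.0658 in liver FXR KO and 0.0951, 0.22 and 0.207 in whole-body FXR KO. Missing this rule does not exclude a pairing, which was not settled. With a replicate block, 1 transporter was called between the knockouts with GW4064 and 2 in the F test, again without the share of all genes. Abcg8 then passed in liver FXR KO relative to WT with GW4064 (adjusted p = 0.0209) and between the knockouts with GW4064 (adjusted p = 0.049), and Abcb11 in liver FXR KO relative to WT with GW4064 did not (adjusted p = 0.0583).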

Other observations

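Within groups, the same replicate number often read lowest for the canalicular transporters other than Abcb11, a pattern picked out after the values were seen. Abcb11 read lowest on replicate 2 in 4 groups and on replicate 3 in 2. Abcg5 read lowest on replicate 1 in 6 of 6 groups and Abcb4 on replicate 3 in 6 of 6, and Abcc2 and Abcg8 on replicate 1 in 5 of 6. The same number was lowest in all 6 groups for 0.605% of 12394 genes and in at least 5 for 6.84%, against 2 and 4 of the 9 transporters. The labels do not say what a replicate number marks, and what it stands for was not tested.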
